A study of Mus musculus with 8 samples.

Results

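The AP-1 family genes *Fos*, *Fosb*, *Fosl1*, *Fosl2*, *Jun*, *Junb*, *Jund* and *Atf3* were followed in RNA-seq libraries of the mouse incisor cervical loop (CL), the end from which the tooth keeps growing. They were chosen by name, and all 8 were found among the 23358 genes of the deposited table. CLH tissue contains the dental epithelial stem cells and CLT tissue contains the progenies of those cells. Both were taken at 4 weeks of age from *Med1* cKO mice and from Cre-negative Ctrl littermates. The cKO mice carry floxed *Med1*, a gene for a subunit of the Mediator co-activator complex, and Cre driven by the *Krt14* promoter, which deletes exons 8 to 10 in *Krt14*-expressing epithelial cells and leaves other cells of the tissue with *Med1*. All mice were on a C57BL/6 background, and the study describes the 2 libraries of each of the 4 groups (Ctrl CLH, cKO CLH, Ctrl CLT and cKO CLT) as biological duplicates from 2 litters. The labels do not tie a library to an animal, and for CLT the study describes CL tissues pooled in each group. The p-values therefore measure the spread between these libraries, not between animals.

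AP-1 is a transcription factor made of 2 basic leucine zipper (bZIP) proteins, one usually from the Jun family and the other from the Fos family or, as with ATF3, from the ATF family. Fos proteins need a partner to bind DNA, whereas Jun proteins can also pair with each other. In skin, AP-1 acts in the stress and growth factor response and in keratinocyte differentiation, and many of its genes are induced within minutes by MAP kinase signalling.

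Values are RPKM, read numbers divided by gene length and by library size, so levels of genes of unequal length can be compared. The libraries had 22330512 to 28651106 reads on genes. Members passed the filter on low values, and were tested with 14148 genes in all, where at least 2 of the 8 libraries reached an RPKM of 1. *Fos*, *Fosl2*, *Jun*, *Junb*, *Jund* and *Atf3* passed. *Fosb* and *Fosl1* did not, and are described without a main test. The 2 Ctrl CLT libraries stood apart from each other, with a median absolute difference of 0.404 on the log2(RPKM + 1) scale against 0.0922 to 0.113 in the other groups. *Med1* RPKM, summed over the whole gene with and without the deleted exons, was 7.71 and 9.12 for Ctrl CLH, 7.10 and 7.03 for cKO CLH, 4.83 and 8.71 for Ctrl CLT, and 9.15 and 8.96 for cKO CLT. It was not lower in CLT of the libraries labelled cKO, and directions below are those of the labels.

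In the mm10 coordinates of the table, the Fos-family genes lie at chr12:85473901-85477270 (*Fos*, plus strand), chr7:19302696-19310045 (*Fosb*, minus strand), chr19:5447698-5455938 (*Fosl1*, plus strand) and chr5:32136472-32157839 (*Fosl2*, plus strand). The Jun-family genes lie at chr4:95049036-95052222 (*Jun*, minus strand), chr8:84976909-84978748 (*Junb*, minus strand) and chr8:70697739-70700616 (*Jund*, plus strand), and *Atf3* at chr1:191170297-191183333 (minus strand).

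The promoters of the members on which the results turn are shown for their regulatory sequence. RefSeq windows (GRCm38.p6) were matched for 7 of the 8 members, *Fosl1* having none. Each line gives the 100 bases before the annotated start, 5′ to 3′ on the strand of the gene, with matches to the searched motifs in capitals.
Fosl2: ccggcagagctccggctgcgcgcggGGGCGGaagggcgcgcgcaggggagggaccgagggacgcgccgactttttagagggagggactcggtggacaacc
Junb: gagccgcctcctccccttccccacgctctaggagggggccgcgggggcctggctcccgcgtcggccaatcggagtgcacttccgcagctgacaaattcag
Fos: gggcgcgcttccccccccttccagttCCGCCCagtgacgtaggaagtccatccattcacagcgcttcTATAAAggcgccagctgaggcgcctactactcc
Jun: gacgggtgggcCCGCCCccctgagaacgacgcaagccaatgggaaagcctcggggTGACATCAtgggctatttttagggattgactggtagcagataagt
These stretches lie at chr5:32136372-32136471 (plus strand), chr8:84978749-84978848 (minus strand), chr12:85473790-85473889 (plus strand) and chr4:95052223-95052322 (minus strand), in that order.

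Motifs were searched on both strands of the 250 bases before each start, also in 32851 promoters of all genes, where several starts of a gene count separately. The AP-1 site TGACTCA, held by 4.46% of all promoters, and the CRE TGACGTCA, held by 1.55%, matched in none of the 7 member windows. The CArG box, bound by serum response factor, was in 1.47% of promoters and in no member window. The variant TGACATCA, known from the *JUN* promoter and added after the other searches, was in 2.93% of promoters and, among members, in *Jun*, 45 to 38 bases before the start. The TATA box TATAAA (12.4% of promoters) was found in *Fos*, 33 to 28 bases before the start. The GC box GGGCGG (32.7%) was in *Fos*, *Fosb*, *Fosl2*, *Jun* and *Atf3*, and the E box CACGTG (6.02%) in no member window. The *Junb* window therefore has no capitals. These are matches of letters in 1 window per gene and were not related to the levels. Sites more than 250 bases upstream or with other letters would be missed, so a motif without a match is not shown to be absent.

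*Fosl2*, which encodes the Fos-family protein FRA-2, was the most abundant member in every library. Its RPKM was 18.1 and 16.9 for Ctrl CLH, 19.3 and 16.9 for cKO CLH, 26.1 and 19.4 for Ctrl CLT, and 50.2 and 48.3 for cKO CLT. Only cKO CLT stood clearly above the rest, and its lower library was above the higher Ctrl CLT library. Mean RPKM in CLT was 2.17 times that of Ctrl (49.2 ± 1.37 against 22.7 ± 4.76, SD, n = 2). Each *Fosl2* value rested on 2670 to 8254 reads.

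*Fos*, the prototype immediate-early member, had an RPKM of 6.34 and 7.18 for Ctrl CLH, 7.24 and 7.42 for cKO CLH, 7.70 and 5.39 for Ctrl CLT, and 11.9 and 14.1 for cKO CLT. The first 3 groups spanned one range and both cKO CLT libraries lay above it, with a mean of 13.0 ± 1.61 against 6.55 ± 1.64 for Ctrl CLT (SD, n = 2), 1.99 times as high. *Fosb*, an immediate-early gene best known from neurons, was low, at 0.331 and 0.345 for Ctrl CLH, 0.447 and 0.242 for cKO CLH, 0.444 and 0.179 for Ctrl CLT, and 0.992 and 1.10 for cKO CLT. The order of the groups was that of *Fos*, with a mean in CLT 3.35 times as high in cKO, on 18 to 113 reads per library. *Fosl1*, which encodes FRA-1, was at the limit of detection. It had 0, 1, 0, 1, 0 and 0 reads in the Ctrl CLH, cKO CLH and Ctrl CLT libraries and 2 and 6 reads in cKO CLT. A library with 0 reads allows up to 3, so no fold change is given, and such floors cover counting error only.

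*Junb* showed the largest relative difference among the Jun genes. JUNB is a Jun protein that can restrain growth in keratinocytes. Its RPKM was 4.12 and 3.26 for Ctrl CLH, 6.17 and 6.38 for cKO CLH, 14.4 and 3.90 for Ctrl CLT, and 24.0 and 33.7 for cKO CLT. The groups did not overlap in CLT, but the 2 Ctrl CLT libraries were 3.69-fold apart. Mean RPKM was 3.15 times as high in cKO CLT as in Ctrl CLT (28.9 ± 6.90 against 9.15 ± 7.42, SD, n = 2). Against Ctrl CLT 1 alone the cKO mean was 2.0 times as high, and against Ctrl CLT 2 alone it was 7.39 times.

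*Jun*, which encodes the c-Jun subunit, had an RPKM of 8.54 and 9.90 for Ctrl CLH, 8.25 and 9.79 for cKO CLH, 14.8 and 8.06 for Ctrl CLT, and 17.1 and 18.6 for cKO CLT. Its cKO CLT mean was 1.57 times the Ctrl CLT mean, and Ctrl CLT 1 was close to the cKO libraries. *Jund*, the most constitutively expressed Jun gene, had 6.60 and 6.15 for Ctrl CLH, 8.12 and 8.63 for cKO CLH, 10.5 and 4.65 for Ctrl CLT, and 9.53 and 11.2 for cKO CLT. It is the tested member whose cKO and Ctrl libraries overlapped in CLT, with Ctrl CLT 1 between the 2 cKO libraries. *Jun*, *Junb* and *Jund* have no introns, so that their counted length equals their span. The library kit named in the methods does not mark strand. Reads of *Jun* and of its antisense neighbour *Junos* can therefore not be told apart, nor can those of *Jund* and *Gm11175*, or of *Fosl1* where it overlaps *Ccdc85b*.

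*Atf3*, an ATF-family gene induced by stress, followed region more than genotype. Its RPKM was 1.28 and 1.37 for Ctrl CLH, 0.975 and 1.39 for cKO CLH, 3.51 and 2.78 for Ctrl CLT, and 3.86 and 4.55 for cKO CLT. All 4 CLT libraries were above all 4 CLH libraries. Within CLT the cKO mean was 1.34 times the Ctrl mean, a smaller ratio than that of the other 7 members except *Fosl1*, for which none is given.

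**Figure D1:**
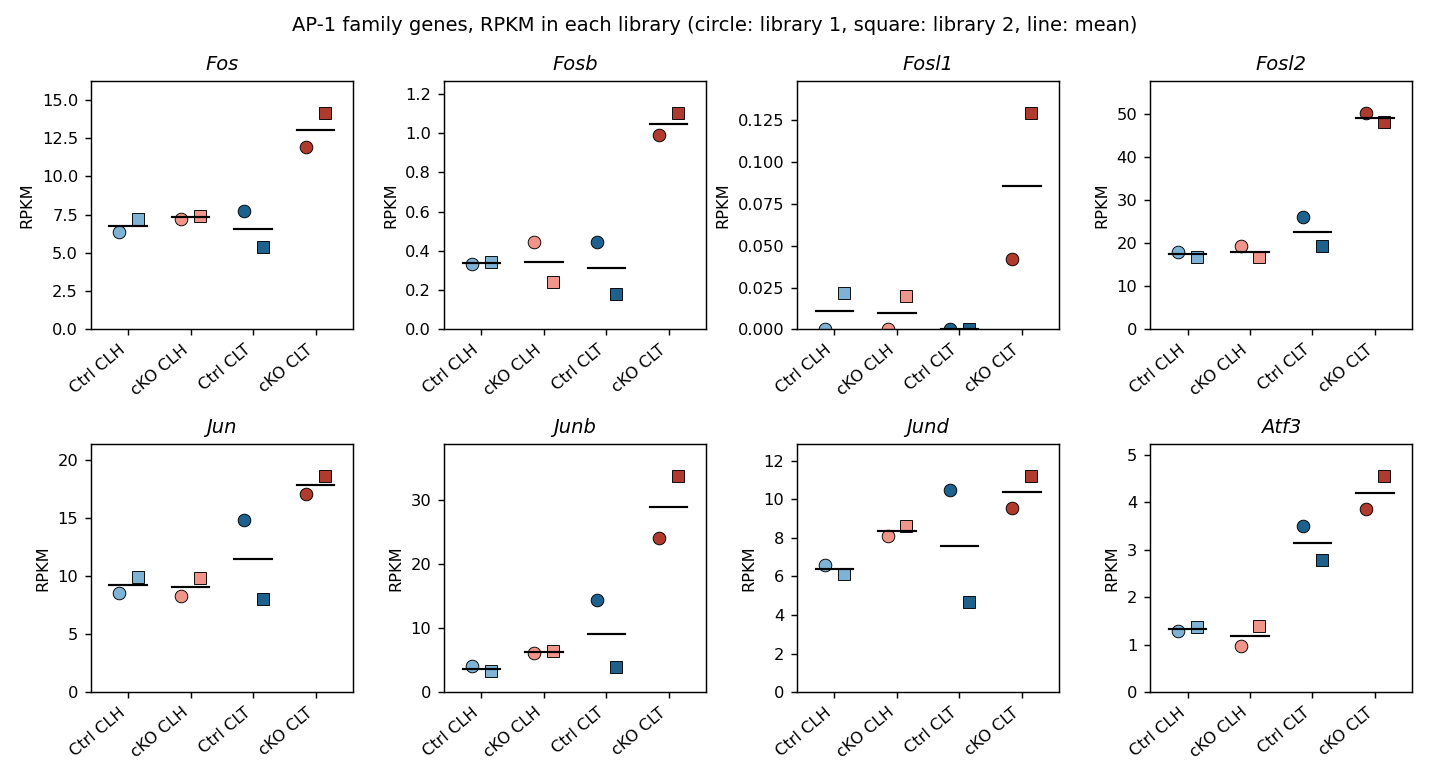
RPKM of each AP-1 family gene (y axis, linear, its own range per gene) in the 2 libraries of the 4 groups (x axis), with circles for library 1, squares for library 2 and lines for group means. *Fosl2* stands at 50.2 and 48.3 for cKO CLT against 16.9 to 26.1 in the other 6 libraries, and the 2 Ctrl CLT libraries are far apart for *Junb*, *Jun* and *Jund*.

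The order of levels by RPKM differed between groups. In Ctrl CLH, *Fosl2* (mean 17.5) was followed by *Jun* (9.22), *Fos* (6.76), *Jund* (6.38), *Junb* (3.69), *Atf3* (1.33), *Fosb* (0.338) and *Fosl1* (0.0109), and among neighbours in that order *Fos* and *Jund* overlapped. In cKO CLT the order was *Fosl2* (49.2), *Junb* (28.9), *Jun* (17.9), *Fos* (13.0), *Jund* (10.4), *Atf3* (4.2), *Fosb* (1.04) and *Fosl1* (0.0854), with no overlap between neighbours. *Junb* thus stood below *Jund* in Ctrl CLH and above *Jun* in cKO CLT. In Ctrl CLT *Jun*, *Junb*, *Jund* and *Fos* overlapped and have no order there.

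*Fosl2* provided 68.7% to 79.6% of the summed Fos-family RPKM in all 8 libraries. The makeup of the Jun family varied more. *Junb* provided 21.4% and 16.9% of the summed Jun-family RPKM in Ctrl CLH, 27.4% and 25.7% for cKO CLH, 36.3% and 23.5% for Ctrl CLT, and 47.4% and 53.1% for cKO CLT. *Jund* provided 34.3% and 31.9% for Ctrl CLH but 18.8% and 17.6% for cKO CLT. The highest *Junb* shares were thus those of cKO CLT, and the lowest *Jund* shares as well. Summed over all 8 members, RPKM was 45.3 and 45.2 for Ctrl CLH, 50.5 and 50.7 for cKO CLH, 77.4 and 44.3 for Ctrl CLT, and 118 and 132 for cKO CLT. Ctrl CLT 2 was at the CLH level, whereas Ctrl CLT 1 lay between that level and cKO CLT. The ratio of Fos-family to Jun-family RPKM, 0.863 to 1.5 over the libraries, took its lowest and its highest value within Ctrl CLT.

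**Figure D2:**
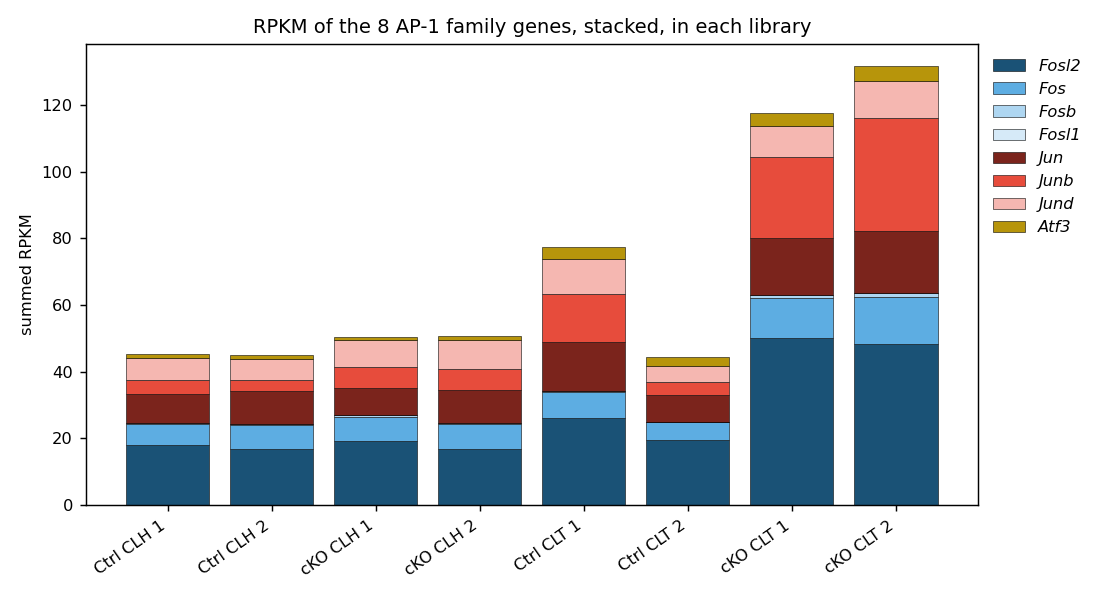
Summed RPKM of the 8 members (y axis, linear from 0) in each library (x axis), with Fos-family genes in blue, Jun-family genes in red and *Atf3* in yellow. The 2 cKO CLT bars reach 118 and 132 and the 4 CLH bars 45.2 to 50.7, while Ctrl CLT 1 and 2 reach 77.4 and 44.3.

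The first comparison asked how the members differed between cKO and Ctrl in CLT, where progenies of the stem cells lie. On the log2(RPKM + 1) scale used for all tests, cKO minus Ctrl was 1.76 for *Junb* (SE 0.62, 95% interval 0.05 to 3.47), 1.10 for *Fosl2* (SE 0.20, 0.56 to 1.64) and 0.91 for *Fos* (SE 0.23, 0.27 to 1.54). The difference was 0.66 for *Jun* (SE 0.32), 0.49 for *Jund* (SE 0.40) and 0.33 for *Atf3* (SE 0.20), with intervals that include 0. Of the 6 tested members, 0 passed an adjusted p of 0.05 with limma (0.0777% of all genes passed as higher and 1.68% as lower). voom on the recovered reads called 0 members but also 0 of all genes, so it does not set the members apart. The smallest adjusted p with limma was 0.068 for *Fosl2*, followed by 0.091 for *Fos* and 0.13 for *Junb*. Those 3 members had an unadjusted p under 0.05, as did 19.8% of all genes in that direction. Both cKO libraries were above both Ctrl libraries for 5 of the 6 tested members, against 37.2% of all tested genes. The same held for *Fosb*, which that share does not cover, while *Fosl1* had too few reads to tell (2 and 6 against 0 and 0). The median difference was 0.78 over the 6 tested members and -0.01 over all genes. With 2 libraries against 2, the smallest p that an exact permutation test of a single gene can give is 0.333.

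These calls depended on the Ctrl CLT libraries. With Ctrl CLT 1 left out, all 6 tested members passed as higher in cKO (31.4% of all genes), and with Ctrl CLT 2 left out *Fos*, *Fosl2* and *Junb* passed (29.1%). The Ctrl library that remains is then assumed to vary like the 2 cKO libraries. *Fosl2* was 1.30 higher without Ctrl CLT 1 and 0.89 higher without Ctrl CLT 2, *Fos* 1.13 and 0.68, and *Junb* 2.59 and 0.94. *Jun* was 1.06 and 0.26 higher, *Atf3* 0.46 and 0.20, and *Jund* 1.0 without Ctrl CLT 1 and -0.02 without Ctrl CLT 2. With all 8 libraries in 1 fit, which gives Ctrl CLT the spread shared by the 4 groups, *Fosl2* (adjusted p = 0.0042 with limma), *Fos* (0.011) and *Junb* (0.033) passed, as did 23.7% of all genes in that direction.

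In CLH, where the stem cells lie, the differences between cKO and Ctrl were smaller, and the largest were those of *Junb* and *Jund*. *Junb* was 1.70 times and *Jund* 1.31 times as high by mean RPKM in cKO (6.27 ± 0.151 against 3.69 ± 0.612 and 8.38 ± 0.358 against 6.38 ± 0.317, SD, n = 2). The difference was 0.64 for *Junb* (SE 0.12) and 0.35 for *Jund* (SE 0.09), each with an adjusted p of 0.69 with limma. For the other 4 tested members it lay between -0.10 (*Atf3*, 95% interval -0.40 to 0.20) and 0.10 (*Fos*, -0.15 to 0.36). *Fosl2* differed by 0.04 (-0.20 to 0.28). limma called 0 of the 6 members and voom 0, and each called 0.0% of all genes in either direction. *Junb* and *Jund* had an unadjusted p under 0.05, as did 4.83% of all genes as higher in cKO. *Fos*, *Junb* and *Jund* did not overlap between the groups and were higher in cKO, as were 19.9% of all tested genes. Their median difference of 0.07 over the 6 members stood beside -0.01 over all genes.

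The cKO effect was compared between the regions by an interaction over all 8 libraries. This fit, too, gives Ctrl CLT, whose libraries differed most, the spread shared by the 4 groups. For *Fosl2*, cKO minus Ctrl was larger in CLT than in CLH by 1.06 on the log2 scale (SE 0.22, 95% interval 0.53 to 1.58, adjusted p = 0.027 with limma). It was the 1 member of 6 to pass as higher (8.05% of all genes, with 9.58% as lower), and it did not pass without the filter on low values (adjusted p = 0.056). For *Fos* the interaction was 0.80 (SE 0.25, adjusted p = 0.073 with limma). *Fosl2* and *Fos* had an unadjusted p under 0.05, as did 20.4% of all genes in that direction. The values for *Junb* (1.12, SE 0.71), *Jun* (0.69, SE 0.37), *Atf3* (0.43, SE 0.24) and *Jund* (0.14, SE 0.45) had intervals that include 0. Without Ctrl CLT 1 all 6 members passed (28.5% of all genes as higher), without Ctrl CLT 2 *Fos* and *Fosl2* passed (26.6%), and with any other single library left out 0 passed.

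The normal step from CLH to CLT was read in the Ctrl libraries. *Atf3* was 2.37 times as high by mean RPKM in Ctrl CLT as in Ctrl CLH (3.14 ± 0.518 against 1.33 ± 0.0674, SD, n = 2), a difference of 0.83 (SE 0.20, adjusted p = 0.33 with limma). *Fosl2* was 1.30 times as high, a difference of 0.34 (SE 0.19, adjusted p = 0.49 with limma). For both, the libraries of the groups did not overlap (15.2% of all genes did so as higher). *Junb*, *Jun*, *Jund* and *Fos* overlapped between the regions, with differences of 0.90 (SE 0.61), 0.23 (SE 0.32), 0.13 (SE 0.39) and -0.06 (SE 0.22). limma called 0 of 6 members (0.00707% of all genes as higher), and voom called 0 members and 0 of all genes. *Atf3* alone had an unadjusted p under 0.05 (4.15% of all genes). *Atf3* passed with all 8 libraries in 1 fit (adjusted p = 0.046 with limma), as did 2.45% of all genes as higher. The differences depended on which Ctrl CLT library was kept. Without Ctrl CLT 1 and without Ctrl CLT 2, they were 0.07 and 1.72 for *Junb*, -0.17 and 0.63 for *Jun*, and -0.38 and 0.64 for *Jund*. In the same order they were -0.28 and 0.17 for *Fos*, 0.14 and 0.55 for *Fosl2*, and 0.70 and 0.96 for *Atf3*. The *Fos* difference became 0.10 under median-of-ratios scaling, which moved the median of all genes from -0.13 to 0.01.

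In the cKO libraries, which had little spread in either region, all 6 tested members were higher in CLT than in CLH and passed (28.9% of all genes passed as higher and 45.1% as lower). The difference was 2.02 for *Junb* (SE 0.15, adjusted p = 4.1e-06 with limma), 1.40 for *Fosl2* (SE 0.09, 2.5e-06) and 1.26 for *Atf3* (SE 0.13, 3.6e-05). It was 0.92 for *Jun* (SE 0.11, adjusted p = 7.9e-05 with limma), 0.75 for *Fos* (SE 0.11, 0.00028) and 0.27 for *Jund* (SE 0.11, 0.044). In mean RPKM, *Junb* was 4.6 times, *Atf3* 3.56 times, *Fosl2* 2.72 times, *Jun* 1.98 times, *Fos* 1.77 times and *Jund* 1.24 times as high in CLT. All 6 tested members had both CLT libraries above both CLH libraries (34.5% of tested genes). So did *Fosb*, which that share does not cover, while *Fosl1* had too few reads to tell (2 and 6 against 0 and 1). The median difference was 1.09 for the 6 tested members and -0.18 for all genes, or 0.02 for all genes under median-of-ratios scaling, under which the members' values were higher still (*Jund* 0.48, *Junb* 2.22). That scaling changed the calls over all genes from 4084 higher and 6384 lower to 5270 higher and 4884 lower. The *Jund* call was lost without the filter on low values, with all 8 libraries in 1 fit and with each library left out in turn (adjusted p from 0.054 to 0.49 with limma). The comparisons in CLT and between regions share libraries and are not independent.

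**Figure D3:**
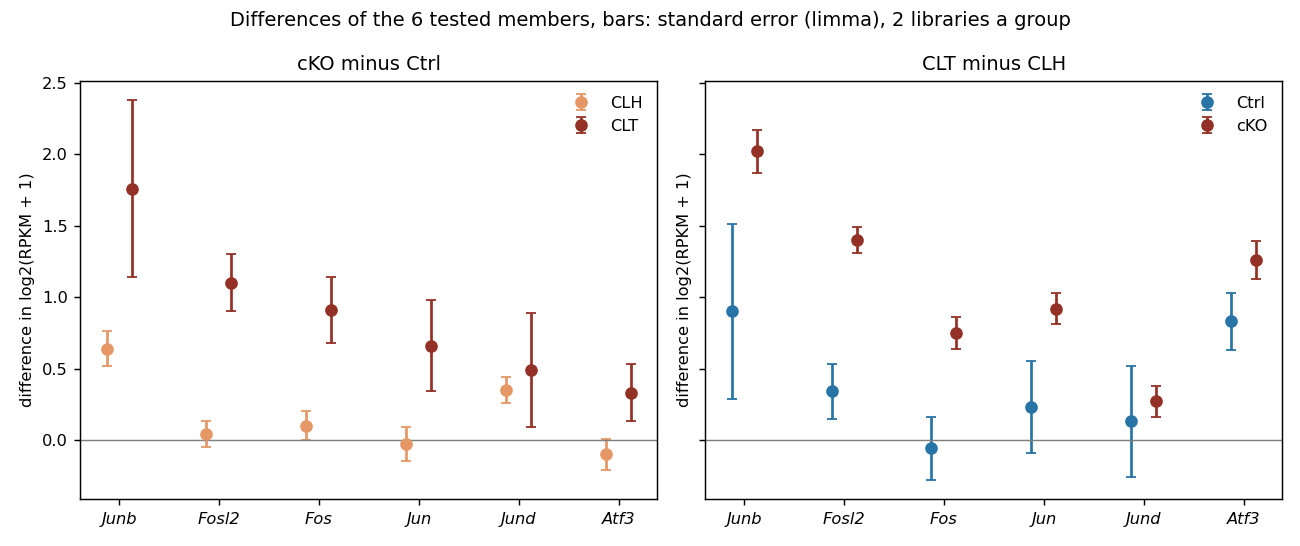
Difference in log2(RPKM + 1) of the 6 tested members (x axis), with standard errors from limma and 2 libraries a group. On the left, cKO minus Ctrl is 1.10 for *Fosl2* in CLT and 0.04 in CLH, and on the right, CLT minus CLH in cKO runs from 0.27 for *Jund* to 2.02 for *Junb*, with wider error bars in the comparisons that use Ctrl CLT.

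The tissues differed in their cells as well as in genotype. The labelled cell type is dental epithelium, and the 7 epithelial markers, among them *Krt14* and *Epcam*, summed to an RPKM of 633 to 728 in CLH, 1500 and 873 for Ctrl CLT, and 2060 and 2320 for cKO CLT. The 9 mesenchyme markers, such as *Col1a1* and *Vim*, summed to 2270 to 4640 and were present in all libraries. They did not move together in CLT. *Col1a1* was lower in cKO (1070 and 1330 for Ctrl CLT, 376 and 472 for cKO CLT). *Col3a1* was higher (527 and 456 against 874 and 979), and *Dcn* overlapped (129 and 239 against 198 and 188). The 7 ameloblast markers, which encode enamel matrix proteins and proteases, summed to 84600 and 37400 for Ctrl CLT but to 19.7 and 15.8 for cKO CLT. Of cornified epidermis, 6 of 7 markers were found, with sums of 234 and 3.83 for Ctrl CLT and 706 and 720 for cKO CLT, and 1 of them was at 0 for Ctrl CLT 2. The 8 skeletal muscle markers summed to 671 and 51.0 for Ctrl CLT and 1850 and 2030 for cKO CLT, against 28.1 to 32.6 in CLH. The 7 melanocyte markers summed to 136 and 10.5 for Ctrl CLT and 419 and 420 for cKO CLT. For cornified epidermis, muscle and melanocyte markers, Ctrl CLT 1 lay between Ctrl CLT 2 and cKO CLT, as it did for every member but *Jund* and *Fosl1*. The part of these cells in the members' differences was not tested, and in bulk tissue more cells of a type and more RNA per cell cannot be told apart.

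*Krt14*, a keratin of basal epithelial cells, was itself 543 and 275 for Ctrl CLT and 558 and 649 for cKO CLT, so the members were also set against it, a choice made after the values were seen. As a percent of the *Krt14* RPKM of the same library, *Junb* was 2.65 and 1.42 for Ctrl CLT and 4.30 and 5.20 for cKO CLT. *Fosl2* was 4.81 and 7.03 for Ctrl CLT and 9.0 and 7.44 for cKO CLT, beside 9.24 and 9.53 for Ctrl CLH. *Fos* was 1.42 and 1.96 for Ctrl CLT and 2.13 and 2.18 for cKO CLT. These 3 of the 6 tested members were higher without overlap in cKO CLT on this scale (14.3% of all tested genes were higher and 45.8% lower without overlap), whereas *Jun* (2.72 and 2.93 against 3.06 and 2.87), *Jund* (1.94 and 1.69 against 1.71 and 1.73) and *Atf3* (0.647 and 1.01 against 0.693 and 0.701) overlapped. *Fosl2* in cKO CLT was then not above Ctrl CLH, and *Junb* in cKO CLT was above each of the other 6 libraries. Against the summed RPKM of the 7 epithelial markers instead, *Junb* was at 0.957% and 0.447% for Ctrl CLT and 1.16% and 1.46% for cKO CLT, still higher without overlap. *Fosl2* (1.74% and 2.22% against 2.44% and 2.08%) and *Fos* (0.512% and 0.617% against 0.576% and 0.61%) overlapped on that scale. *Jun* (0.982% and 0.924% against 0.83% and 0.804%), *Jund* (0.699% and 0.533% against 0.463% and 0.483%) and *Atf3* (0.233% and 0.318% against 0.188% and 0.196%) were lower without overlap. Of all tested genes, 12.2% were higher and 69.1% lower without overlap on that scale. Whether cKO and Ctrl overlapped in CLT thus depended on the epithelial reference for each tested member but *Junb*.

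**Figure D4:**
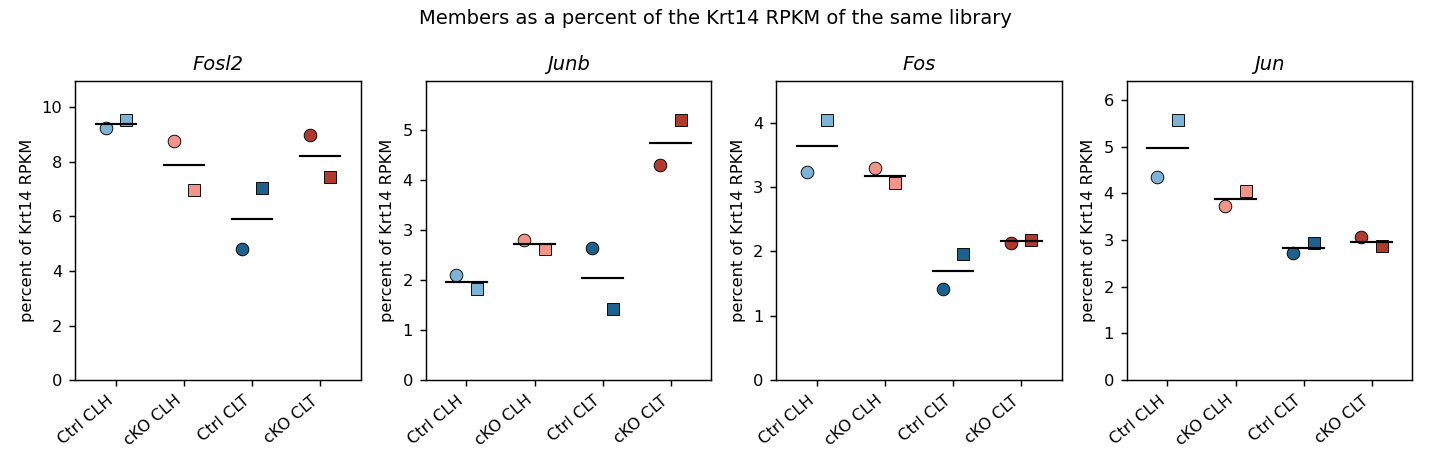
RPKM of *Fosl2*, *Junb*, *Fos* and *Jun* as a percent of the *Krt14* RPKM of the same library (y axis, linear from 0) by group (x axis), with circles for library 1, squares for library 2 and lines for means. *Junb* is at 4.30 and 5.20 for cKO CLT and at most 2.80 elsewhere, while *Fos* and *Jun* are lower in all CLT libraries than in all CLH libraries.

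Other genes around AP-1 were read by lists in CLT, where voom called 0 of all genes. Of 17 other bZIP genes, which encode partners and rivals of AP-1, 14 were tested, with 0 called by limma or voom and a median difference of -0.40. At an unadjusted p under 0.05, 5 were higher and 3 lower, beside 19.8% and 16.4% of all genes. The small MAF gene *Maff* was the highest, at 4.86 and 1.17 for Ctrl CLT and 11.2 and 9.61 for cKO CLT (1.67, SE 0.53, adjusted p = 0.12 with limma). *Batf*, an AP-1 partner of immune cells, was the lowest, at 6.73 and 14.4 against 0.868 and 0.973 (-2.51, SE 0.39, adjusted p = 0.062 with limma). These genes lay on both sides of 0, whereas the 6 tested AP-1 members had means above Ctrl.

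Of 30 further immediate-early genes 26 were tested, with 0 called by either tool and a median of 0.44. At an unadjusted p under 0.05, 12 were higher and 2 lower, read beside the same shares of all genes. *Egr3* was the highest, at 8.16 and 0.186 for Ctrl CLT and 32.7 and 38.1 for cKO CLT (3.46, SE 1.05, adjusted p = 0.11 with limma). *Gadd45b*, a stress response gene, was the lowest, at 48.5 and 29.1 against 11.6 and 13.2 (-1.53, SE 0.29, adjusted p = 0.071 with limma). In the interaction, *Egr1* (2.10), *Btg2* (1.56) and *Klf4* (1.10) passed as higher and *Gadd45b* (-2.06) and *Rhob* (-0.54) as lower, with adjusted p from 0.020 to 0.045 with limma. These 3 and 2 of 26 stand beside 8.05% higher and 9.58% lower of all genes, and voom called 3 higher and 1 lower. In the same test limma called 1 bZIP gene higher and 3 lower of 14, 1 heat shock gene higher of 10, 5 MAP kinase pathway genes higher of 22, and 5 matrix and growth genes lower of 13, and no epidermal gene. Of 10 heat shock genes, 0 were called by either tool, with a median of 0.54. At an unadjusted p under 0.05, 3 were higher, beside 19.8% of all genes. *Hspb1*, a small heat shock gene of differentiating epithelium, was at 199 and 32.7 for Ctrl CLT and 315 and 376 for cKO CLT. *Hsp90aa1* was the lowest of the list, at 95.9 and 176 against 114 and 103. All 22 MAP kinase pathway genes were tested, with 0 called by either tool and a median of 0.39. At that unadjusted threshold, 10 were higher and 2 lower, beside 19.8% and 16.4% of all genes. *Mapk12*, which is abundant in muscle, was the highest (7.52 and 1.27 against 16.5 and 17.7), and *Elk3* the lowest (10.3 and 19.3 against 5.18 and 5.74).

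Genes that are described as AP-1 targets differed between the lists. The epidermal list was shortened after its values were seen, so its counts only describe the genes kept. Of 17 epidermal genes 16 were found and 15 tested, with a median of 2.35. Without overlap, 12 were higher and 2 lower in cKO CLT, beside 37.2% and 35.1% of all genes. limma and voom each called 0 of them. At an unadjusted p under 0.05 with limma 4 were higher and 0 lower, beside 19.8% and 16.4% of all genes. *S100a9*, a calcium-binding protein gene of neutrophils and stressed epidermis, was the lowest, at 115 and 28.9 for Ctrl CLT and 13.6 and 16.8 for cKO CLT (-1.87, SE 0.71, adjusted p = 0.15 with limma). *Sprr1a*, a cornified envelope gene, was the highest, at 407 and 0.190 for Ctrl CLT and 1050 and 1220 for cKO CLT (5.68, SE 2.96, adjusted p = 0.24 with limma). Leaving out Ctrl CLT 1 gave these epidermal genes a median of 3.42, and leaving out Ctrl CLT 2 gave 1.29. Of 18 matrix and growth genes 13 were tested, with a median of -1.13. With limma the protease gene *Mmp9* (10.6 and 18.7 for Ctrl CLT, 0.375 and 0.456 for cKO CLT, -3.42, adjusted p = 0.042) and the osteopontin gene *Spp1* (52.2 and 185 against 0.839 and 0.531, -5.89, adjusted p = 0.049) fell. *Mmp13*, a collagenase of bone, was the lowest (31.8 and 232 against 0.160 and 0.137, -6.25, adjusted p = 0.064 with limma), and the growth factor gene *Areg* the highest (2.31 and 0.125 against 7.47 and 8.16). Of all genes, limma called 1.68% as lower in CLT. voom, which called 0 of all genes in CLT, called none of the matrix and growth genes. Beside this, the 7 odontoblast and bone markers summed to 1380 and 1600 for Ctrl CLT and to 3.37 and 3.09 for cKO CLT, and their part in these values was not tested. In CLH limma called 0 genes of any of these 6 lists and 0 of all genes.

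**Figure D5:**
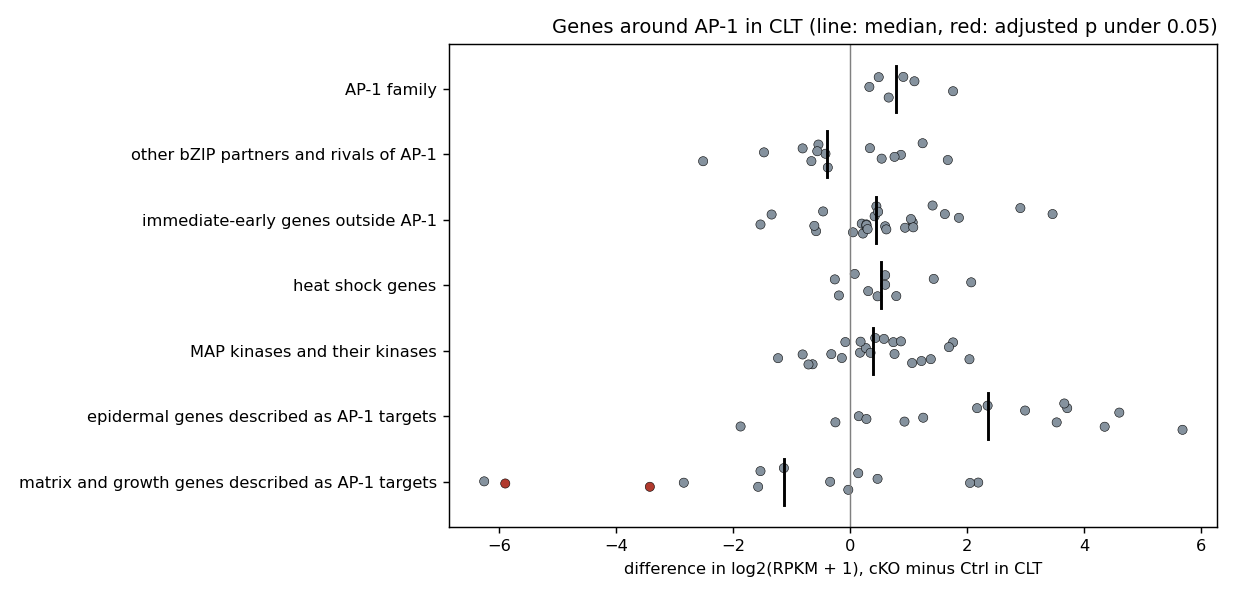
Difference in log2(RPKM + 1), cKO minus Ctrl in CLT (x axis), for the tested AP-1 members and the 6 lists (y axis), 1 point a gene, lines for medians and red for an adjusted p under 0.05 with limma. The 6 AP-1 points all lie above 0 with a median of 0.78, and the red points are *Spp1* and *Mmp9*, both lower in cKO.

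The genes most like each member were those with the smallest root-mean-square (RMS) difference in log2(RPKM + 1) over the 8 libraries, each gene centred on its own mean. For *Fosl2* they were *D230025D16Rik* (RMS 0.0367) and *Usp2* (0.0388), and for *Fos* they were *Zbtb7c* (0.059) and *Ell* (0.0603). *Junb* was nearest to *Evpl*, which encodes the cornified envelope protein envoplakin, with an RMS of 0.16, and then *1810019D21Rik* (0.188). *Evpl* RPKM was 25.6 and 5.81 for Ctrl CLT and 46.7 and 58.1 for cKO CLT. *Jun* was nearest to *Tmem190* (0.0719) and *Ramp1* (0.0872), *Jund* to *Spata2l* (0.0765) and the Notch ligand gene *Jag2* (0.0943), and *Atf3* to the keratin gene *Krt19* (0.0865) and *S100a1* (0.0871). Among the members, *Fos* and *Jun* were the closest pair (0.184) and *Junb* and *Jund* the farthest (0.798). The 8 libraries share their batch and tissue differences, and these distances are a description.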

How the data were processed

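RNA of CLH and CLT tissue was sequenced by the authors as paired-end libraries. Their processing notes name FastQC 0.72, Trim Galore 0.4.3.1, STAR 2.6.0b-1 on mm10, featureCounts 1.6.3 and DESeq2 2.11.40.2. The authors deposited 1 table of RPKM per gene and library with the gene length. The annotation, the strand setting and the RPKM total are not given in the sources used here. Library totals were set by the authors' scaling, so RPKM compare shares of RNA. Multiplied by length, 100.0% of the nonzero values under 1000 reads, 11052 to 12627 per library, were whole multiples of 1 read (tolerance 0.01 reads). Reads of the other values were rounded from the same step. Of the gene names, 26 are used more than once, on 69 rows, and were not used by name. The table left 0 per-sample columns unused.

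Values were tested as log2(RPKM + 1), which understates changes of low genes, in R 4.3.3 with the limma package (3.58.1, eBayes with a trend) and Benjamini-Hochberg adjustment over 14148 genes (threshold 0.05, 2-sided). Each comparison used its own 4 libraries and the interaction all 8. The fits were also run on simulated reads in which every group had the same spread, so the wider spread of Ctrl CLT was not covered. Named genes were all members, the 2 nearest genes of each tested member, each list's highest, lowest and up to 4 called genes in CLT, *Med1* and *Krt14*. The immediate-early genes named for the interaction were chosen after their values were seen. Members and lists were chosen with earlier results of these data known. Alternatives were pseudocounts of 0.1 and 0.5, no filter, median-of-ratios scaling, a replicate block, 1 fit of all 8 libraries, no trend, voom, and each library left out. Gene positions and strands are from GENCODE M21 and promoters from RefSeq. Other data of the study were not analysed here. 1 gene of the epidermal list was left out after its values were seen and is not reported here.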

Additional observations from a re-analysis of the deposited data

Results flagged for a closer look

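*Fosl2* passed the limma interaction test, with cKO minus Ctrl larger in CLT than in CLH by 1.06 on the log2(RPKM + 1) scale (SE 0.22, adjusted p = 0.027). Both cKO libraries were above both Ctrl libraries in CLT, and the groups overlapped in CLH. Over the alternatives other than leaving out a library, the adjusted p ranged from 0.026 to 0.056 with limma or voom. The call was lost with any single library outside Ctrl CLT left out, as were most of the calls over all genes. That loss does not set *Fosl2* apart from other genes.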

How the results depend on the processing

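Of the members' differences under alternatives that keep every library, 236 were counted as unchanged, 4 newly passed and 3 no longer passed. The sign turned for 1, *Fos* in Ctrl CLT against CLH (0.10 under median-of-ratios scaling). No filter, 1 fit of all 8 libraries, a replicate block and no trend leave the difference itself as it was, so only its call could move there. Those counted as unchanged kept their direction and side of the threshold, or belong to *Fosb* and *Fosl1* without the filter. These genes had no main test to compare with. Without the filter *Fosb* passed in cKO CLT against CLH (adjusted p = 0.033 with limma). With all 8 libraries in 1 fit, 3 members were called in CLT and 1 in Ctrl CLT against CLH. Without the filter, 0 were called in the interaction. The cause was not tested. With 1 library left out, called members ranged from 0 to 6 in CLT, from 0 to 5 in Ctrl CLT against CLH and from 0 to 6 in the interaction. The Ctrl CLT libraries set the upper ends (6 without Ctrl CLT 1 in CLT and the interaction, 5 without Ctrl CLT 2 between regions). Without either cKO CLT library 0 were called in CLT. Small differences turned with 1 library left out. *Jund* ranged from -0.02 (without Ctrl CLT 2) to 1.0 in CLT, from -0.37 (without Ctrl CLT 2) to 0.66 in the interaction and from -0.38 (without Ctrl CLT 1) to 0.64 between the Ctrl regions. There *Jun* ranged from -0.17 (without Ctrl CLT 1) to 0.63 and *Fos* from -0.28 to 0.17. In CLH the ranges were -0.05 to 0.13 for *Fosl2*, -0.14 to 0.08 for *Jun* and -0.24 to 0.04 for *Atf3*.

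The labels give each group the replicate numbers 1 and 2 without saying that a number marks a litter. Deviations of same-numbered libraries correlated at -0.19 between Ctrl and cKO CLT, 0.07 between Ctrl and cKO CLH, 0.20 between the Ctrl regions and 0.31 between the cKO regions. With a replicate block, 0 members were called in CLT, while calls over all genes went from 248 to 1744. Over all genes, calls in CLT were 52 without the filter, 6183 with all 8 libraries in 1 fit and 0 with voom, and ranged from 11 to 9838 with 1 library left out. Depth limits *Fosl1* (at most 6 reads) and *Fosb*.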
